A study of Mus musculus with 15 samples.

Results

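Liver gene expression in mice that drank fructose with sodium nitrite was compared with that in mice that drank water. The comparison took in the 6 arrays of these 2 groups out of 15 in the series, chosen by their treatment labels, and all 22206 probe sets that are not controls out of 28846 entries on the array. Each array, a Clariom S mouse array that reads a gene with a set of short probes, held liver RNA from a separate C57BL/6 mouse. The fructose plus nitrite group (called nitrite livers here) received 10% fructose in its drinking water together with sodium nitrite, whose daily dose of 0.36 mg per kg was set to the estimated highest daily intake in Europe. The fructose group, used below to show what the nitrite group shares with fructose alone, received 10% fructose without a preservative, and the water group received neither. Treatment lasted 11 weeks and began at 3 weeks of age, so the mice were 14 weeks old at the end, although the labels state an age of 11 weeks. All of these mice came from a colony founded by giving germ-free mice a human gut microbiota and bred from there for generations, so the water group is not a conventional mouse either. The labels place them in plastic isolators, and the methods describe filtered cages under positive pressure. The study had 8 mice per group, of which 3 were on arrays, and it divided the sexes evenly within a group, but the labels do not say which sex was on which array.

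Fructose is taken up by the liver and phosphorylated by ketohexokinase, and its carbon enters the triose phosphates below the main control point of glycolysis. From there it can feed de novo lipogenesis, the making of fatty acids from acetyl-CoA, which is switched on by the carbohydrate sensor ChREBP (Mlxipl) and by SREBP-1c. PPAR alpha, the opposing regulator, drives genes that burn fatty acids. Nitrite is a curing salt. It can be reduced to nitric oxide by molybdenum enzymes such as xanthine oxidoreductase and aldehyde oxidase, and nitric oxide is otherwise made from arginine by the nitric oxide synthases, which need tetrahydrobiopterin.

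Values are log2 signals, so 1 unit is a factor of 2. The nitrite livers differed widely from the water livers. With limma fitted to all arrays, 4966 of 22206 probe sets (22.4%) were altered, which here means more than 2-fold different with an adjusted p (Benjamini-Hochberg false discovery rate, FDR) under 0.05. Of these, 2567 (11.6%) were higher in the nitrite livers and 2399 (10.8%) were lower. Gene lists below are counted by the FDR alone, at under 0.05 whatever the size of the change. By that rule 7721 probe sets (34.8%) differed, 3545 (16%) higher and 4176 (18.8%) lower. List counts of 4 or fewer moved by up to 3 members when single arrays were left out. The arrays of the groups did not overlap for 43.4% of all probe sets. The largest changes were mostly rises, with 182 altered probe sets past a log2 fold change of 3 upwards and 24 downwards. Low signal was counted more often among the falls, but the cut was not the same in both groups. In 1170 of the 2399 falls a nitrite array lay under the median of its negative control probes, described below. In 432 of the 2567 rises a water array did. The full size of such changes may not be read. The cut averaged 6.53 on nitrite arrays and 5.61 on water arrays. On nitrite arrays 1, 2 and 3 it was 6.57, 6.58 and 6.45, above the median signal of all tested probe sets (6.36, 6.36 and 6.33). Most probe sets therefore lay under it there. The median log2 fold change over all probe sets was −0.15.

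Before any gene is named, the arrays themselves have to be described, because the water arrays stood apart as arrays and not only in liver genes. On the first principal component, which held 50.2% of the variance, the nitrite arrays scored 30.6, 27.0 and 27.9, against −120.8, −125.3 and −65.7 for water arrays 1, 2 and 3. Water arrays correlated with each other at 0.965 to 0.967, and nitrite arrays at 0.986 to 0.988. The fit pools the spread over all groups, so standard errors and FDRs below do not measure the spread of the water livers by itself. For Srrm2, the largest rise named below, the SD was 1.96 in the water livers and 0.13 in the nitrite livers. The SE of its difference from the pooled spread was 0.65. The median of the negative control probes, which match no mouse transcript, averaged 6.53 ± 0.07 on nitrite arrays and 5.61 ± 0.02 on water arrays (SD, n = 3 each). The 4 hybridization controls, labelled fragments added after the RNA had been processed, averaged 11.86 ± 0.16 on nitrite arrays and 13.02 ± 0.33 on water arrays, and no array outside the water group reached the lowest water array (at most 12.40, against at least 12.64). The differences in the negative and the hybridization controls were as large as 3 against 3 can show (exact permutation test, two-sided, p = 0.1, the smallest p possible). With the hybridization control mean as a covariate in the fit, no probe set was altered and 1849 had an unadjusted p under 0.05, against 9865 without it. Under that covariate 84.2% of the altered probe sets kept their sign, the median size of their log2 fold change was 0.68, against 1.42 without it, and their median standard error was 0.59, against 0.30 without it. The covariate separates the water arrays from all others, so treatment and array handling cannot be told apart in this comparison, and that holds for every result against water below. Some fits below keep only 1 water array, so their FDRs hold no spread among the water livers. Water array 3 lay nearer the nitrite arrays than the other water arrays did. With it as the only water array, in a fit that takes its spread from the other groups, 2803 probe sets were altered (1415 higher and 1388 lower in the nitrite livers), 99.8% of the 4966 kept their sign, and of the 110 genes named below that passed against all water arrays 84 still passed, while the fold change of 56 moved by over 1.5 times.

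**Figure D1:**
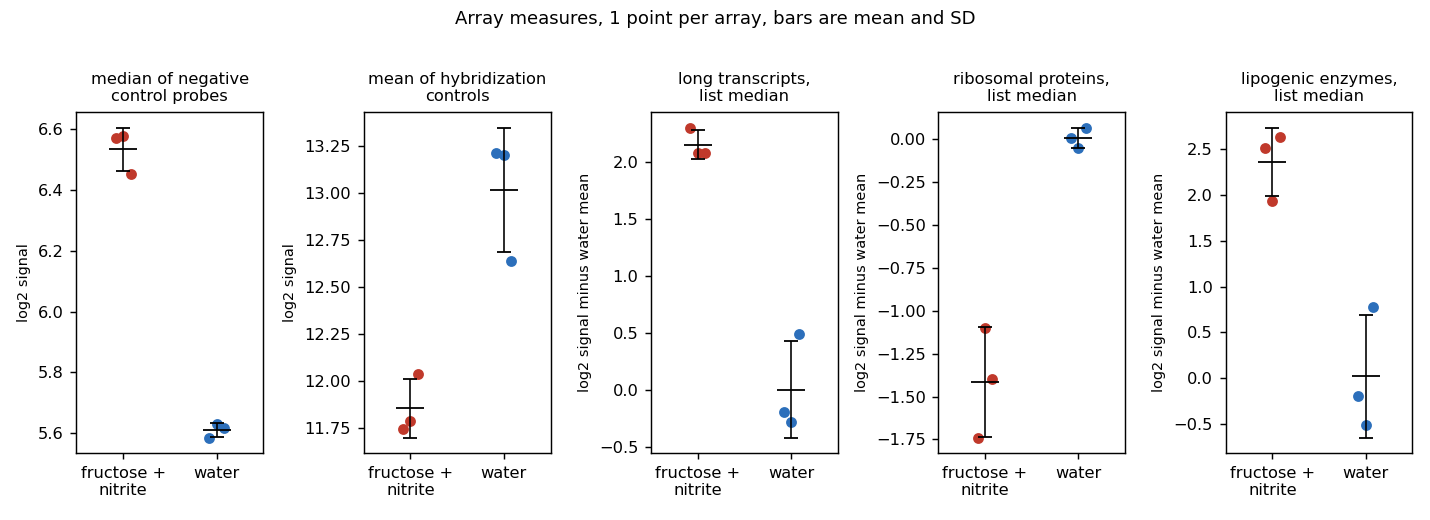
Array measures with 1 point per array, the fructose plus nitrite arrays to the left and the water arrays to the right, with mean and SD (n = 3 each). The vertical axes give log2 signal for the control probes and log2 signal minus the water mean for the medians of 3 gene lists. The nitrite and water arrays overlap in none of the 5 measures.

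The tissue matched its label. Albumin (Alb) lay at 19.80 to 19.86 in the nitrite livers and at 19.48 to 19.68 in the water livers, near the top of the measured range of 19.9, and transthyretin (Ttr) at 19.37 to 19.42 and at 19.30 to 19.46. Of 16 hepatocyte markers measured, 5 were higher (3 without nitrite array 1 or water array 1), 1 was lower and 10 did not pass the test, with a median log2 fold change of 0.19. Of 15 pancreas and fat markers, 9 lay under the negative control median on all 6 arrays, and adiponectin (Adipoq), a hormone of fat cells, and the elastase Cela1 were among them. The Y-linked genes Kdm5d, Uty and Eif2s3y gave signal on all 6 arrays, so all 6 livers read as male. Their average lay 3.04 ± 0.23 above the negative control median on nitrite arrays and 4.07 ± 0.27 above it on water arrays (SD, n = 3 each). None of the 3 genes passed the test, which takes its spread from all 15 arrays. In the fructose plus benzoate group, part of that fit, their mean was 10.00 on array 1, but 3.57 and 3.51 on arrays 2 and 3. Kdm5d did not overlap between nitrite and water, with SDs of 0.24 and 0.84, yet its SE was 0.77.

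Promoter sequences of the genes on which the account turns are given here so that they can be read beside the values. They are the 250 bases before the transcription start, taken from RefSeq (GRCm38.p6), on the strand of the gene. Fasn (chr11:120824548-120824797, minus strand) and Idi1 (chr13:8885356-8885605, plus strand) show the CCAAT box, bound by NF-Y, with ATTGG in capitals on either strand. Pklr (chr3:89136373-89136622, plus strand, 1 of 2 starts in the table) shows in capitals a pair of E-box-like elements spaced as in a carbohydrate response element, searched as CACG, 9 bases of any kind and CGTG, and a TATA box, TATAAA. Saa1 (chr7:46742981-46743230, minus strand) and Saa2 (chr7:46751583-46751832, plus strand) show TTGCNNAA, a core of C/EBP sites, in capitals. For Abcg5 and Abcg8 (chr17:84683012-84683120, written on the plus strand), which are transcribed away from each other, the whole stretch of 109 bases between their starts is shown, with TATAAA of the minus strand in capitals as TTTATA.
Fasn: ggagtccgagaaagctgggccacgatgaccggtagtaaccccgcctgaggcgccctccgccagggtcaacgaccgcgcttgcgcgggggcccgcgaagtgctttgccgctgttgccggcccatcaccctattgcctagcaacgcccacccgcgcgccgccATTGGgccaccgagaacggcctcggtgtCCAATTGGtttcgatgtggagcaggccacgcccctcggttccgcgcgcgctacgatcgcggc
Pklr: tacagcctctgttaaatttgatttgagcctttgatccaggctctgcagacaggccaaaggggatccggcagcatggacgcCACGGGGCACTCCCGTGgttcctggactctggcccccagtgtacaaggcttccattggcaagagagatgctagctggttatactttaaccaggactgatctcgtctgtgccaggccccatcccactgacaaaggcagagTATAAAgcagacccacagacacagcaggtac
Idi1: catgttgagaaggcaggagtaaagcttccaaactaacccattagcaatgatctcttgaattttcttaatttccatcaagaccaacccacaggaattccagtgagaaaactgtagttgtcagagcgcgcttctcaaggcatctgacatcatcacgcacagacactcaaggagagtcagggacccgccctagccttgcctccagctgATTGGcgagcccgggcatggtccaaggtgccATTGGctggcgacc
Saa1: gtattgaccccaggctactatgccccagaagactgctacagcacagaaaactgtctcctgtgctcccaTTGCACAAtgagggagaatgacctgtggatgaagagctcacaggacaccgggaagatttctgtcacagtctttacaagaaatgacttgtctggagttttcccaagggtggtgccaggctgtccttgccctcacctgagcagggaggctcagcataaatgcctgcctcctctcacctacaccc
Saa2: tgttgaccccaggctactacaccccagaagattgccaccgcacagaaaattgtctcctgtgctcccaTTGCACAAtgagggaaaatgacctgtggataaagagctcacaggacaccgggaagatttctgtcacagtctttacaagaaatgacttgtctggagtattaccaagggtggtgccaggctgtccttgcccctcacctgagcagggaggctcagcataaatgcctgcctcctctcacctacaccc
Abcg5-Abcg8: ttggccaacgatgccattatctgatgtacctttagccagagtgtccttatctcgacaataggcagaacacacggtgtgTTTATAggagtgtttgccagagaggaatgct

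Searched on both strands in all 32817 promoters of the same length, ATTGG was in 33.8%, TTGCNNAA in 9.57%, TATAAA in 12.4% and the spaced pair of CACG and CGTG in 0.219% (72 promoters). By gene, ATTGG was in 37.5% of 26994 genes and TTGCNNAA in 10.9%. Of the cholesterol synthesis list, 14 of the 15 genes with an entry held ATTGG (93.3%), and of the lipogenesis list 9 of 15 (60%). Of the acute phase list, 13 of 23 held TTGCNNAA (56.5%). Pklr was the only gene of 20 in the fructose and glucose list with the spaced pair. The Saa1 and Saa2 windows are identical at 238 of 251 aligned columns (94.8%). A match of letters is not a measured binding site.

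De novo lipogenesis rose as a group. Of 17 measured enzymes of fatty acid synthesis, elongation and desaturation, 13 were higher in the nitrite livers at an FDR under 0.05, none was lower and 4 did not pass, with a median log2 fold change of 2.12. Against water array 3 alone, 7 of the 17 were still higher. Fasn, the fatty acid synthase whose promoter is printed above, had 16.22, 12.73 and 15.00 in the nitrite livers, against 7.88, 7.10 and 10.66 in the water livers. The lowest nitrite liver, the second, was about 2 log2 units above the highest water liver, and the fold change was 68.8 (log2 6.10, SE 0.90, limma FDR = 6.14e-05). On the log2 scale it was 5.32 without nitrite array 1, 5.38 without water array 2, 7.07 without nitrite array 2 and 7.16 without water array 3. Me1, the malic enzyme that supplies NADPH for fatty acid synthesis, had 16.82, 15.46 and 17.06 in the nitrite livers, against 9.97, 11.80 and 12.34 in the water livers. The groups were more than 3 log2 units apart at their nearest, and the rise was 33.7-fold (log2 5.07, SE 0.53, FDR = 4.76e-06; log2 4.37 without water array 1).

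Acly, which makes cytosolic acetyl-CoA from citrate, read 16.74, 13.54 and 15.78 in the nitrite livers, against 10.91, 9.30 and 12.39 in the water livers. Acaca, the carboxylase that commits acetyl-CoA to fatty acid synthesis, read 14.01, 11.86 and 12.84, against 8.01, 7.98 and 9.13 in water. In Fasn, Acly and Acaca alike the second nitrite liver was the lowest of its group, yet it stayed above every water liver. Acly rose 22.4-fold (log2 4.48, SE 0.77, FDR = 0.000253; log2 3.70 without water array 2 and 5.39 without nitrite array 2) and Acaca 23.1-fold (log2 4.53, SE 0.64, FDR = 4.17e-05). Elovl6, which lengthens palmitate, rose 10.7-fold (log2 3.42, SE 0.67, FDR = 0.000773; 4.08 without nitrite array 2), and Elovl5, which acts on polyunsaturated chains, 10.9-fold (log2 3.44, SE 0.41, FDR = 1.13e-05). Against water array 3 alone neither Acly (log2 2.96, FDR = 0.0543) nor Elovl6 (log2 2.28, FDR = 0.116) passed. Scd1, the desaturase that makes oleate, stood at 19.79, 19.68 and 19.72 in the nitrite livers, against 18.35, 16.13 and 18.74 in the water livers. The nitrite values lay against the upper end of the array's range, and the difference of 1.99 (SE 0.43, FDR = 0.0016) was 1.19 without water array 2.

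The regulators of these enzymes did not move as a block. Of 18 measured, 7 were higher, 4 were lower and 7 did not pass. Mlxipl, which encodes ChREBP, was at 13.95, 13.52 and 14.24 in the nitrite livers, against 10.27, 9.95 and 10.83 in the water livers, a rise of 11.7-fold (log2 3.55, SE 0.44, FDR = 1.35e-05). Its partner Mlx, with which ChREBP binds DNA, went the other way at 10.73, 10.57 and 10.54, against 12.14, 12.50 and 11.91 in water. None of the arrays overlapped for either gene, and Mlx fell by 1.57 (log2, SE 0.23, FDR = 6.31e-05). Nr1h3, the oxysterol receptor LXR alpha, read 10.80, 11.07 and 11.13 in the nitrite livers, against 13.27, 13.77 and 12.60 in the water livers, and fell by 2.22 (SE 0.30, FDR = 2.81e-05). Insig1, which holds SREBPs in the endoplasmic reticulum, fell by 1.22 (SE 0.29, FDR = 0.0031), whereas Scap, which escorts them out, rose by 1.24 (SE 0.27, FDR = 0.0018). Thrsp, a lipogenic protein usually counted among ChREBP targets, overlapped between the groups. It read 16.94, 11.61 and 16.15 in the nitrite livers and 15.85, 17.43 and 17.58 in the water livers, and its difference of −2.05 (SE 1.02) did not pass (FDR = 0.129). The low value of Thrsp was again in the second nitrite liver.

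**Figure D2:**
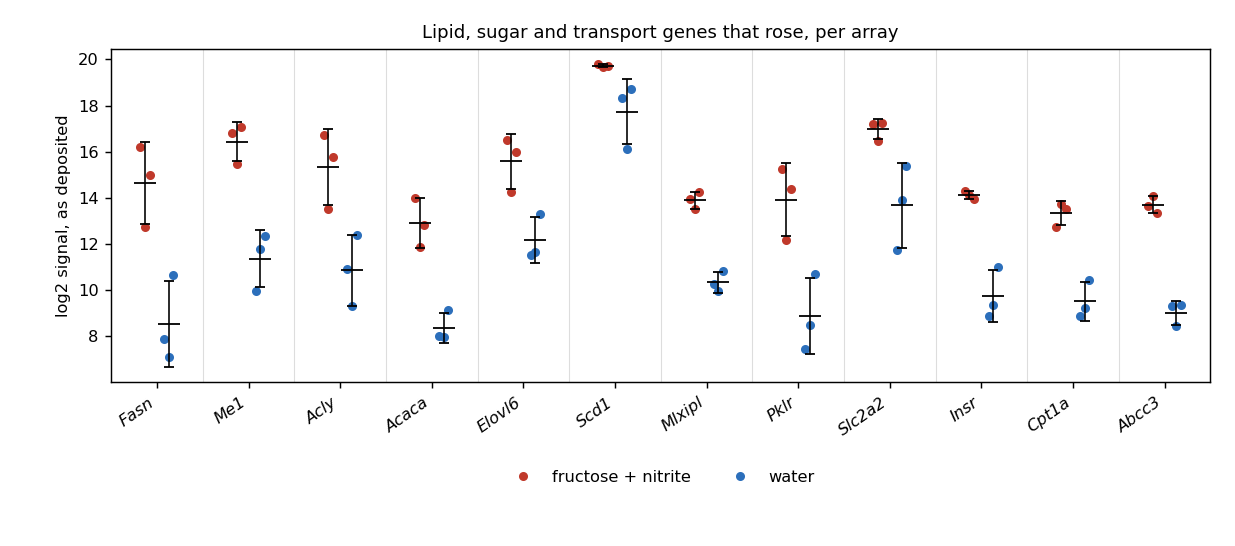
Log2 signal of 12 genes that rose, with 1 point per array, fructose plus nitrite in red to the left and water in blue to the right of each gene, and mean with SD (n = 3 each). No pair of groups overlaps, and water array 3 was the highest water liver for all 12 genes.

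Sugar handling moved the same way. In the list of fructose and glucose metabolism, 13 of 18 measured genes were higher and none was lower, with a median log2 fold change of 1.78, and 9 were higher against water array 3 alone. Pklr, the liver pyruvate kinase and a textbook ChREBP target, had 15.24, 12.17 and 14.39 in the nitrite livers, against 7.45, 8.51 and 10.69 in the water livers. The groups did not overlap, and the rise was 33.1-fold (log2 5.05, SE 0.72, FDR = 4.89e-05; 4.33 without water array 1, 5.93 without nitrite array 2 and 5.95 without water array 3). Ketohexokinase (Khk), the enzyme that opens fructose breakdown, changed less, at 13.76, 13.12 and 14.05 against 11.61, 12.05 and 12.71 in water. Its rise was 2.87-fold (log2 1.52, SE 0.31, FDR = 0.000974), and against water array 3 alone it did not pass (log2 0.93, FDR = 0.121). Tkfc, the triokinase that phosphorylates the glyceraldehyde made from fructose, rose 13.7-fold (log2 3.78, SE 0.46, FDR = 1.34e-05; 4.41 without water array 3). The glucose transporter Slc2a2 (GLUT2) read 17.21, 16.48 and 17.24 in the nitrite livers, against 11.73, 13.91 and 15.39 in the water livers. The water livers were spread over more than 3 units and all lay below the nitrite livers, and the rise was 3.30 on the log2 scale (SE 0.56, FDR = 0.000209; 2.33 without water array 1 and 4.16 without water array 3). G6pc, the catalytic subunit that releases glucose from glucose 6-phosphate, also rose, by 3.63 (SE 0.65, FDR = 0.000343; 3.00 without water array 2 and 4.47 without water array 3), but did not pass against water array 3 alone (1.96, FDR = 0.0947).

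Among 23 genes of insulin signalling, 14 were higher and 1 was lower (median log2 fold change 1.86). Insr, the insulin receptor, read 14.30, 14.11 and 13.95 in the nitrite livers, against 8.88, 9.37 and 11.02 in the water livers. The nitrite livers were tightly grouped and the water livers were not, and the rise was 20.6-fold (log2 4.36, SE 0.41, FDR = 2.84e-06; 31.9-fold without water array 3). Mtor, the kinase that couples insulin and nutrients to growth, rose 10.4-fold (log2 3.38, SE 0.33, FDR = 3.79e-06). Irs1, the receptor's docking protein, rose at least 6.40-fold, with 1 water array under its negative control median (log2 2.46 without water array 2). "At least" is used where an array of the dimmer group lay under the median of its own negative controls, and the fold is then taken against that median. This median was higher on nitrite than on water arrays, so the cut was not the same in both groups. Akt2, the insulin-responsive kinase of liver, was the 1 that fell, by 0.91 (SE 0.23, FDR = 0.0059; −0.83 and FDR = 0.105 against water array 3 alone).

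Genes of fatty acid burning were higher in the same livers. Of 39 measured, 25 were higher and none was lower (median log2 fold change 1.24), and 11 were higher against water array 3 alone. Cpt1a, the carnitine transferase that admits long-chain fatty acids to mitochondria, had 12.76, 13.74 and 13.53 in the nitrite livers, against 8.87, 9.23 and 10.45 in the water livers. The groups were more than 2 log2 units apart at the nearest and the rise was 14.2-fold (log2 3.83, SE 0.38, FDR = 4.03e-06). Ppara itself rose 4.24-fold (log2 2.09, SE 0.40, FDR = 0.000715; log2 1.03 and FDR = 0.159 against water array 3 alone) and Ppargc1a, its coactivator, 4.65-fold (log2 2.22, SE 0.40, FDR = 0.000384). Ehhadh, the bifunctional enzyme of peroxisomal oxidation, rose by 2.57 (SE 0.36, FDR = 3.67e-05). The omega-hydroxylases of the Cyp4a family are the PPAR alpha targets that moved furthest. Cyp4a14 read 10.76, 12.99 and 12.71 in the nitrite livers, against 7.77, 5.80 and 6.22 in the water livers, which do not overlap. Its log2 fold change of 5.56 carried a standard error of 1.90 (FDR = 0.0301), and the FDR passed 0.05 without nitrite arrays 2 or 3 or without water arrays 2 or 3 (up to 0.0901), with a log2 fold change of 6.26 without nitrite array 1. Cyp4a10 rose by 3.93 (SE 1.24, FDR = 0.0204), with an FDR of up to 0.084 when 1 array was left out, any of nitrite arrays 1 and 3 and water arrays 1 and 2. Cyp4a32 rose at least 18.7-fold (FDR = 0.0015). Against water array 3 alone the log2 fold changes were 5.94 for Cyp4a14, 2.56 for Cyp4a10 and 3.27 for Cyp4a32, with no spread among water livers to set them against. The sequences of these closely related genes are alike, and cross-reading between their probe sets was not tested.

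Carboxylesterases, liver hydrolases of esters and triglyceride, were higher for 11 of 13 measured members and lower for 1 (median 1.66). Ces1e rose 7.56-fold (log2 2.92, SE 0.30, FDR = 4.64e-06), with 14.16 to 14.88 in the nitrite livers and 11.08 to 12.05 in the water livers.

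Bile acid genes split between rises and falls. Of 23 measured, 12 were higher, 3 were lower and 8 did not pass (median 1.09), and against water array 3 alone 8 were higher and 2 lower. Abcc3, which exports bile acid conjugates across the basolateral membrane, read 13.67, 14.08 and 13.34 in the nitrite livers, against 9.31, 8.43 and 9.35 in the water livers. Both groups were tight and about 4 log2 units apart, and the rise was 25.4-fold (log2 4.67, SE 0.43, FDR = 2.75e-06). Abcc2, the canalicular exporter of conjugates, rose 8.01-fold (log2 3.00, SE 0.30, FDR = 3.79e-06) and Slc10a1, the sodium-dependent importer NTCP, 5.99-fold (log2 2.58, SE 0.43, FDR = 0.000167). Cyp8b1, the 12-alpha-hydroxylase that sets the share of cholic acid, read 13.13, 10.77 and 12.65 in the nitrite livers, against 9.16, 9.82 and 9.36 in the water livers, a rise of 6.66-fold (log2 2.74, SE 0.52, FDR = 0.000595; 3.44 without nitrite array 2).

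Cyp7a1, the rate-limiting enzyme of bile acid synthesis, fell in the nitrite livers. It had 11.22, 13.27 and 10.59 there, against 14.23, 14.77 and 13.92 in the water livers. The groups did not overlap, and the fold change was −2.61 on the log2 scale (SE 0.76, limma FDR = 0.0128). The call rested on few arrays: the FDR was 0.0518 without nitrite array 1, 0.0726 without nitrite array 3 and 0.214 against water array 3 alone, with log2 fold changes of −2.37, −2.06 and −2.22. Without nitrite array 2 the value was −3.40. The other falls were Cyp2c70, the mouse enzyme that makes muricholic acids (log2 −1.69, SE 0.33, FDR = 0.000777), and Slc51b, a subunit of the basolateral bile acid exporter, at least 1.99-fold (FDR = 0.00014), with all nitrite arrays under their negative control median.

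In cholesterol synthesis the called members were falls. Of 17 measured enzymes, 5 were lower, none was higher and 12 did not pass (median −0.68, against −0.15 over all probe sets), and 8 were lower against water array 3 alone. Without nitrite array 2 the counts were 3 lower and 1 higher, and without water array 3 they were 4 lower and 1 higher. Idi1, the isomerase that makes dimethylallyl diphosphate, read 12.95, 12.33 and 12.48 in the nitrite livers, against 15.49, 15.96 and 15.86 in the water livers. The groups were tight and more than 2 units apart, and Idi1 fell by 3.18 (log2, SE 0.27, FDR = 2.58e-06), a 9.08-fold change. Msmo1, a C4 methyl sterol oxidase, read 9.11, 8.29 and 9.68, against 11.50, 12.18 and 12.26 in water, and fell by 2.95 (SE 0.36, FDR = 1.37e-05). Cyp51, the lanosterol demethylase, fell by 1.28 (SE 0.30, FDR = 0.0033; −1.96 against water array 3 alone). Hmgcs1, the cytosolic HMG-CoA synthase, chosen after its values were seen, overlapped between the groups and did not pass. It read 16.40, 14.97 and 16.36 in the nitrite livers and 15.55, 15.29 and 16.92 in the water livers (FDR = 0.99).

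Sterol efflux, lipoprotein and lipid droplet genes were higher for 18 of 38 measured and lower for 3 (median 0.62). Lrp1, a remnant receptor, had 14.95, 14.81 and 14.86 in the nitrite livers, against 9.30, 9.20 and 11.32 in the water livers, a rise of 30.5-fold (log2 4.93, SE 0.47, FDR = 3.31e-06; 5.62 without water array 3). Abca1, which loads cholesterol onto nascent HDL, rose 14.5-fold (log2 3.86, SE 0.35, FDR = 2.58e-06) and Lpin1, the phosphatidate phosphatase of triglyceride synthesis, 16.2-fold (log2 4.01, SE 0.60, FDR = 6.91e-05). Apob, the structural protein of VLDL, stood at 18.91 to 18.94 in the nitrite livers and at 14.92 to 17.01 in the water livers (log2 3.18, SE 0.36, FDR = 7.74e-06; 3.81 without water array 3). Fabp4, a fatty acid binding protein of fat cells and macrophages, fell by 2.34 (SE 0.30, FDR = 1.97e-05), with 7.52, 6.89 and 7.70 against 9.98, 9.26 and 9.88 in water.

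**Figure D3:**
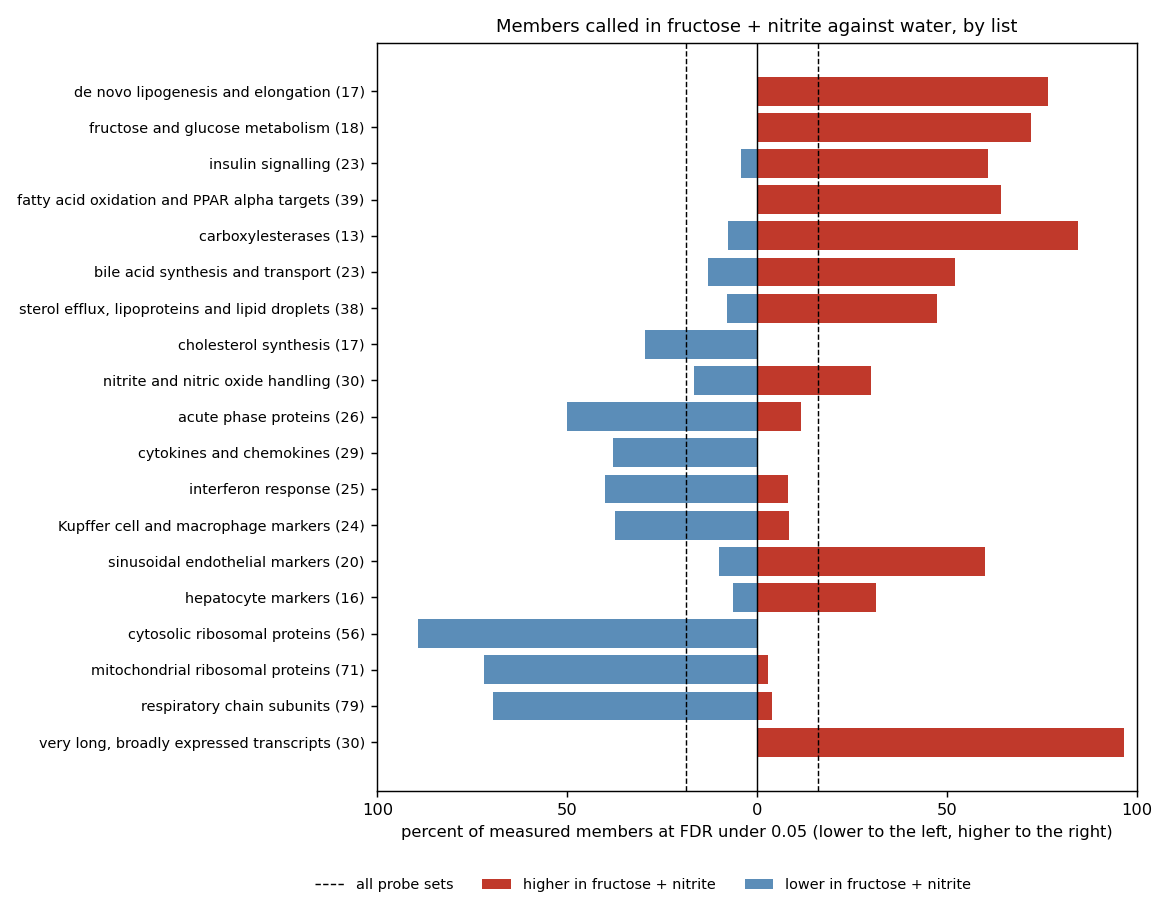
Percent of measured members of 19 gene lists at an FDR under 0.05, higher in fructose plus nitrite to the right and lower to the left, against water; the number measured is in parentheses. The broken lines mark all 22206 probe sets, 16% higher and 18.8% lower. Lipogenesis, fructose and glucose metabolism and fatty acid oxidation have no bar to the left, and cholesterol synthesis, cytokines and ribosomal proteins have none to the right.

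Genes that handle nitrite and nitric oxide were mixed, to be read beside 16% higher and 18.8% lower over all probe sets. Of 30 measured, 9 were higher, 5 were lower and 16 did not pass (median 0.18), and against water array 3 alone 3 were higher and 2 lower. The rises included the molybdenum oxidases Aox1 and Xdh, which can reduce nitrite. Aox1, an aldehyde oxidase, read 13.90, 14.87 and 13.65 in the nitrite livers, against 9.86, 9.72 and 10.86 in the water livers, a rise of 15.9-fold (log2 3.99, SE 0.37, FDR = 2.58e-06). Xdh, xanthine oxidoreductase, read 12.20, 11.88 and 11.80, against 8.51, 8.96 and 10.34 in water, a rise of 6.43-fold (log2 2.68, SE 0.36, FDR = 2.9e-05). Neither overlapped between the groups, and both were also higher in the fructose livers, by 3.56 for Aox1 (FDR = 4.01e-05) and 1.76 for Xdh (FDR = 0.0019) on the log2 scale, against the same water arrays. Ddah1, which clears the synthase inhibitor dimethylarginine, rose by 2.60 (SE 0.36, FDR = 3.41e-05), and Cyb5r3, the cytochrome b5 reductase, by 1.60 (SE 0.37, FDR = 0.0027; 0.89 and FDR = 0.244 against water array 3 alone).

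As a share of the 30 measured, the 5 falls were near the share over all probe sets, and they were spread over several roles. Gch1 and Pts, which make tetrahydrobiopterin, fell by 1.14 (SE 0.29, FDR = 0.0057) and 1.59 (SE 0.22, FDR = 3.36e-05). Arg1, the liver arginase, which competes for arginine, fell by 1.07 (SE 0.25, FDR = 0.0033), and Cyb5a, cytochrome b5, by 1.38 (SE 0.23, FDR = 0.00017). Nos1, the neuronal synthase, read 6.33, 6.09 and 6.30 in the nitrite livers, all under the negative control median of their arrays, against 8.03, 8.10 and 7.15 in the water livers, so that it was at least 2.34-fold lower (FDR = 0.000318). Against water array 3 alone Gch1 (FDR = 0.294), Arg1 (FDR = 0.111) and Nos1 (FDR = 0.0682) did not pass. Nos2 and Nos3, the inducible and endothelial synthases, lay under the negative controls on all 6 arrays, so no level is read from them here. Nos2 and Nos3 were at 4.89 to 5.50 and 4.89 to 5.17 in the nitrite livers, and at 4.84 to 5.19 and 4.33 to 5.01 in the water livers.

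Of 17 genes of nitrosamine activation and DNA repair, 3 were higher and 3 lower (median 0.10), which is near the shares over all probe sets. Mgmt, which removes alkyl groups from guanine, chosen after its values were seen, read 7.48, 6.86 and 7.77 in the nitrite livers and 7.24, 8.51 and 7.91 in the water livers (FDR = 0.226). Cyp2e1, which activates dimethylnitrosamine, was near the top of the range at 18.21 to 18.40 in the nitrite livers and 16.55 to 18.12 in the water livers. It rose by 0.94 (SE 0.29, FDR = 0.0179) but did not pass without water array 1 (0.53, FDR = 0.11), without nitrite array 1 (0.90, FDR = 0.0561) or against water array 3 alone (0.20, FDR = 0.682). Of 27 oxidative stress genes, 9 were higher and 3 lower (median 0.13). Gclc, the catalytic subunit that limits glutathione synthesis, read 15.94, 16.64 and 15.81 against 13.32, 12.42 and 13.14 in water, a rise of 9.02-fold (log2 3.17, SE 0.38, FDR = 1.08e-05). Gpx4, which reduces lipid peroxides, read 11.22, 12.61 and 12.15 against 14.01, 14.20 and 13.72 in water and fell by 1.99 (SE 0.29, FDR = 6.08e-05). Ephx1, the microsomal epoxide hydrolase, rose 6.36-fold (log2 2.67, SE 0.24, FDR = 2.58e-06). Of 24 xenobiotic receptor targets, 5 were higher and 2 lower, among them Sult1d1, a sulfotransferase, which fell by 3.88 (SE 0.35, FDR = 2.58e-06).

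Acute phase proteins, made by hepatocytes in inflammation, were lower for 13 of 26 measured, higher for 3 and not called for 10 (median −0.68), and 9 were lower against water array 3 alone. Serum amyloids fell furthest. Saa1 read 8.42, 9.67 and 8.70 in the nitrite livers, against 15.63, 15.07 and 14.27 in the water livers, and Saa2 read 7.96, 8.97 and 7.64, against 16.47, 14.12 and 12.71. In all water livers both genes were high, in no nitrite liver was either, and the folds were 66.6 for Saa1 (log2 −6.06, SE 0.77, FDR = 1.76e-05) and 75.6 for Saa2 (log2 −6.24, SE 1.05, FDR = 0.000208; −5.22 without water array 1 and −7.10 without water array 3). The promoters printed above show how alike these genes are, and cross-reading between their probe sets was not tested. Orm2, an orosomucoid, fell by 3.10 (SE 0.34, FDR = 6.79e-06). Lcn2, the iron-siderophore binding lipocalin, was at least 4.22-fold lower (FDR = 0.0012), with all nitrite arrays under their negative controls. The members that rose were Itih4, an inter-alpha-inhibitor heavy chain, by 2.22 (SE 0.40, FDR = 0.000381), Cp, ceruloplasmin, by 1.71 (SE 0.33, FDR = 0.000744), and Stat3, the transcription factor that drives the acute phase, by 1.56 (SE 0.25, FDR = 0.000123). Of these, Itih4 (1.23, FDR = 0.0989) and Cp (0.70, FDR = 0.175) did not pass against water array 3 alone.

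Of 29 cytokines and chemokines, 11 were lower and none was higher (median −0.57; 1 was higher without water array 3), and 6 were lower against water array 3 alone. Ccl9, a macrophage chemokine, read 10.30, 12.68 and 11.08 in the nitrite livers, against 15.20, 14.58 and 14.45 in the water livers, and fell by 3.39 (SE 0.40, FDR = 1.08e-05; −4.06 without nitrite array 2). Cxcl9, an interferon-gamma induced chemokine, fell by 2.14 (SE 0.52, FDR = 0.0041; −1.49 without nitrite array 1, and −1.64 with FDR = 0.151 against water array 3 alone), and Cxcl1, a neutrophil attractant, was at least 3.02-fold lower (FDR = 6.79e-06). Of 25 interferon response genes, 10 were lower and 2 higher. Of these genes 6 were lower without nitrite array 1, and 6 with the other groups left out of the fit. Isg15, a ubiquitin-like effector, was at least 2.35-fold lower (FDR = 1.74e-05), whereas Stat2, a subunit of the interferon-activated transcription factor, rose by 2.20 (SE 0.31, FDR = 4.61e-05).

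Marker genes of other cells moved beside these groups. In whole tissue, fewer cells of a type and less RNA per cell cannot be told apart. Of 24 Kupffer cell and macrophage markers, 9 were lower, 2 were higher and 13 did not pass, and the mean log2 signal of the list was 8.01 to 8.59 in the nitrite livers and 8.79 to 8.94 in the water livers. Lyz2, macrophage lysozyme, fell by 3.15 (SE 0.38, FDR = 1.13e-05), with 9.19, 10.24 and 9.83 against 13.15, 13.48 and 12.10 in water, and Aif1 by 1.78 (SE 0.31, FDR = 0.000322). Tyrobp, a myeloid signalling adaptor, was at least 2.05-fold lower (FDR = 0.000119). Among the defining markers, Clec4f fell by 1.26 (SE 0.23, FDR = 0.000369) and Vsig4 by 1.14 (SE 0.30, FDR = 0.0065), but Adgre1, an adhesion receptor of mouse macrophages, did not pass (8.26, 9.34 and 8.21 in the nitrite livers and 8.74, 8.60 and 8.54 in the water livers), and Mrc1 and the CSF1 receptor Csf1r rose, by 1.02 (SE 0.28, FDR = 0.0084) and 0.96 (SE 0.25, FDR = 0.007). Against water array 3 alone the log2 fold changes were −1.29 for Vsig4 and 0.71 for Csf1r, with no spread among water livers to set them against. Clec4f, Vsig4 and Adgre1 were named after their values were seen. Of 20 lymphocyte and neutrophil markers, 7 were lower and none higher (1 higher without nitrite array 3). The part of these cells in the falls of Saa1, Ccl9 and the interferon genes was not tested.

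Sinusoidal endothelial markers were higher for 12 of 20 and lower for 2. Stab2, the hyaluronan scavenger receptor, rose by 2.93 (SE 0.36, FDR = 1.3e-05), and Eng, a TGF-beta co-receptor, by 2.53 (SE 0.36, FDR = 4.87e-05), while Clec4g, a lectin of the same cells, fell by 1.29 (SE 0.25, FDR = 0.000625). Of 27 stellate cell and fibrosis genes, 7 were higher and 3 lower, and those higher numbered 3 without nitrite array 3 or water array 2 and 4 without nitrite array 2. Fn1, fibronectin, which hepatocytes also secrete into plasma, read 17.23, 16.83 and 16.77 in the nitrite livers, against 10.41, 10.43 and 13.39 in the water livers, a rise of 46.4-fold (log2 5.54, SE 0.58, FDR = 5.03e-06; 6.53 without water array 3). Palld, an actin-binding scaffold, rose 44.8-fold (log2 5.49, SE 0.56, FDR = 4.27e-06; 6.41 without water array 3). Of 12 cholangiocyte markers, 2 rose and 2 fell, near the 16% higher and 18.8% lower over all probe sets. The 3 falls of the stellate list were not above that share either. The keratin Krt19, chosen after its values were seen, lay under the negative controls on all 6 arrays. Tff3, a trefoil peptide of mucosal epithelia, gave 5.07, 7.04 and 4.53 in the nitrite livers, against 15.52, 10.54 and 10.34 in the water livers, at least 43.6-fold lower (FDR = 6.93e-05). Its difference depended on the high first water liver, at −4.89 on the log2 scale without that array and −6.59 with it, and was −7.33 without nitrite array 2 and −7.38 without water array 2.

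**Figure D4:**
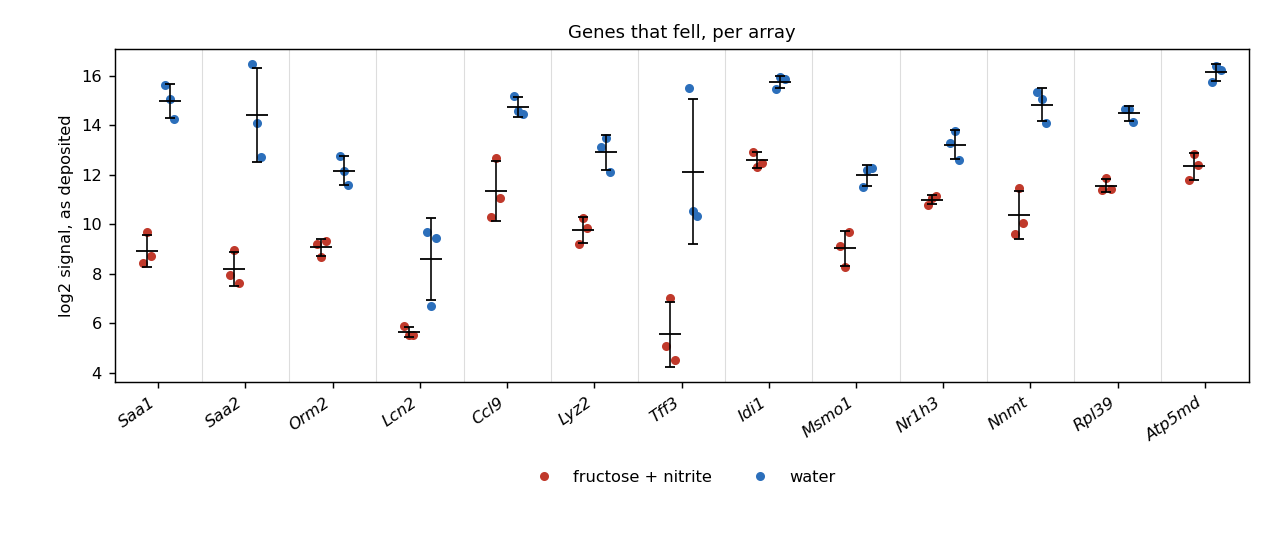
Log2 signal of 13 genes that fell, with 1 point per array, fructose plus nitrite in red to the left and water in blue to the right of each gene, and mean with SD (n = 3 each). Saa1 and Saa2 are between 12.71 and 16.47 in the water livers and between 7.64 and 9.67 in the nitrite livers, and no pair of groups overlaps.

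Many genes of general cell machinery were lower. Of 56 cytosolic ribosomal proteins measured, 50 were lower, none was higher and 6 did not pass (median −1.39), and 43 were lower against water array 3 alone. Rpl39, a protein of the large subunit, read 11.38, 11.85 and 11.43 in the nitrite livers, against 14.66, 14.66 and 14.15 in the water livers. It fell by 2.93 (SE 0.26, limma FDR = 2.58e-06). Of 71 mitochondrial ribosomal proteins, 51 were lower and 2 higher, with Mrps33 down by 3.01 (SE 0.28, FDR = 3.05e-06). Of 79 respiratory chain subunits, 55 were lower and 3 higher (median −1.18). Atp5md, a small subunit of ATP synthase, read 11.78, 12.86 and 12.39 against 15.78, 16.41 and 16.24 in water and fell by 3.80 (SE 0.35, FDR = 2.58e-06). Ndufb4 of complex I fell by 2.89 (SE 0.29, FDR = 4.03e-06), whereas Sdha, the large flavoprotein of complex II, rose by 2.94 (SE 0.39, FDR = 2.49e-05; 3.60 without water array 3). Of 33 proteasome subunits, 16 were lower and 4 higher, with Psma7 down by 2.88 (SE 0.28, FDR = 3.79e-06).

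Very long, broadly expressed transcripts went the other way, with 29 of 30 measured higher and none lower (median 2.22). Srrm2, a splicing scaffold and the largest rise of all named genes, read 14.67, 14.71 and 14.92 in the nitrite livers, against 6.90, 6.94 and 10.31 in the water livers, a rise of 105-fold (log2 6.72, SE 0.65, FDR = 3.58e-06; 7.85 without water array 3). Prpf8, a core protein of the spliceosome, rose 12.0-fold (log2 3.58, SE 0.32, FDR = 2.58e-06), and Birc6, a giant ubiquitin ligase, 11.1-fold (log2 3.47, SE 0.31, FDR = 2.58e-06). The median of this list, relative to the water mean, was 2.31, 2.08 and 2.09 on nitrite arrays and −0.20, −0.28 and 0.49 on water arrays, and that of the ribosomal proteins −1.74, −1.10 and −1.40 against 0.01, −0.05 and 0.07. With all genes sorted by the span of the gene in the genome into 5 bins of equal size, the median log2 fold change was −0.35, −0.27, −0.15, 0.02 and 0.18 from the shortest to the longest genes, and the share called higher was 3.9% in the bin of the shortest genes and 31.8% in that of the longest. The same gradient therefore stands beside every list of short or long genes above. After each array was corrected for a smooth trend on gene span, an alternative chosen after the data were seen, 4116 probe sets were altered. Of the 30 very long transcripts 25 were still higher, so the correction did not remove that pattern. Beside them 13 of 17 lipogenesis genes, 14 of 18 sugar genes and 26 of 39 fatty acid oxidation genes were higher. Lower were 10 of 26 acute phase, 4 of 25 interferon and 40 of 56 ribosomal genes. What sets the gradient was not tested.

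Of the remaining single genes, Nnmt, which methylates nicotinamide, read 9.60, 11.45 and 10.07 in the nitrite livers, against 15.35, 15.09 and 14.10 in the water livers, and fell by 4.47 (log2, SE 0.72, FDR = 0.000132). Hipk2, a nuclear kinase, rose by 4.97 (SE 0.55, FDR = 6.86e-06; 5.77 without water array 3). Tmem256, a small membrane protein, fell by 4.03 (SE 0.35, FDR = 2.58e-06). Acmsd, which diverts tryptophan carbon from NAD synthesis, fell by 3.63 (SE 0.49, FDR = 3.08e-05) and Upp2, a uridine phosphorylase, fell by 3.53 (SE 0.67, FDR = 0.000613; FDR = 0.0521 against water array 3 alone). Csad, the decarboxylase on the path to taurine, read 12.73, 14.71 and 13.71, against 11.41, 9.94 and 9.32 in water, and rose by 3.49 (SE 0.51, FDR = 5.99e-05; 4.08 without water array 1). Of 19 genes of taurine and sulfur amino acid metabolism, 10 were higher and 4 lower. Of 9 urea cycle genes, 5 were higher (3 without nitrite array 1, nitrite array 3 or water array 2) and 2 lower, with Cps1, the mitochondrial carbamoyl phosphate synthetase, up 4.15-fold (log2 2.05, SE 0.30, FDR = 6.22e-05).

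The remaining lists are given by their counts, to be read beside 16% higher and 18.8% lower over all probe sets. Of 22 genes that answer misfolded protein or integrated stress, 7 were higher and 2 lower, with Sel1l, an adaptor of endoplasmic reticulum degradation, up by 2.49 (SE 0.34, FDR = 2.99e-05). Of 21 glucocorticoid and fasting genes, 7 were higher and 5 lower (1 lower without nitrite array 1 or nitrite array 3, and 2 without water array 1), and of 18 clock genes 6 were higher and 1 lower, with the repressor Nr1d1 (REV-ERB alpha) up by 2.64 (SE 0.54, FDR = 0.0011; 1.96 and FDR = 0.0789 against water array 3 alone). Of 10 heat shock chaperones, 6 were higher and 1 lower (median log2 fold change 1.53), and none was higher against water array 3 alone. Of 24 phase II conjugation genes, 4 were higher and 7 lower, and of 20 cell cycle genes 3 were lower and none higher. Of 21 male-biased liver genes, 3 were higher (Cyp4a12b, Cyp2d9 and C4a) and 4 were lower, of which Selenbp2 fell by 4.13 (SE 1.06, FDR = 0.0056, −4.91 without water array 1). The FDR of Cyp4a12b, 0.0378, passed 0.05 when any 1 array other than water array 3 was left out (0.0727 to 0.116), and against water array 3 alone neither Cyp4a12b (FDR = 0.35) nor Cyp2d9 (FDR = 0.127) passed. Of 21 female-biased genes 1 was higher and none lower. Counts of both sex-biased lists carry the spread of the fructose plus benzoate group, whose arrays differed in Y-linked signal. Cyp4a12b had an SE of 1.51, against SDs of 0.19 in the nitrite livers and 0.91 in the water livers.

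Whether nitrite livers differed from livers given fructose alone was tested directly, since both comparisons with water share the water arrays. At an FDR under 0.05, 0 of 22206 probe sets differed (0%; smallest FDR 0.584), and 1155 (5.2%) had an unadjusted p under 0.05. At a fold change over 2 with an unadjusted p under 0.05, 104 did (0.468%), 77 higher (0.347%) and 27 lower (0.122%) in the nitrite livers. These counts were unstable, at 61 (without fructose array 1) to 145 higher (without fructose array 3) and 32 (without fructose array 1) to 69 lower (without fructose array 2) with single arrays left out. The arrays of the nitrite and fructose groups did not overlap for 16.2% of probe sets. Of 17 lipogenic enzymes 0 were higher and 0 lower than with fructose at an unadjusted limma p under 0.05. With 3 arrays per group this does not show that the levels were equal. Fasn had 16.22, 12.73 and 15.00 in the nitrite livers and 11.96, 14.62 and 14.77 in the fructose livers, a difference of 0.87 (SE 0.90, limma FDR = 0.958). Saa1 read 10.54, 8.56 and 9.38 in the fructose livers, a difference of −0.56 (SE 0.77, FDR = 0.972). The hybridization controls were at 11.86 ± 0.16 on nitrite arrays and 12.07 ± 0.14 on fructose arrays (SD, n = 3 each, exact permutation test, p = 0.2). Other array measures did not overlap (exact permutation test, p = 0.1, the smallest possible). The first principal component averaged 28.5 ± 1.85 on nitrite arrays and 3.36 ± 16.3 on fructose arrays, the positive control median 9.35 ± 0.02 and 9.17 ± 0.05, and the median of the long transcripts relative to water 2.16 ± 0.13 and 1.73 ± 0.28.

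Sterol and bile acid genes were among the larger of these differences, none of which passed the FDR. Other lists were apart too, at an unadjusted limma p under 0.05, which 5.2% of all probe sets had. By that rule 18 of 79 respiratory chain subunits and 10 of 56 cytosolic ribosomal proteins were lower than with fructose, with 0 higher. Of 30 very long transcripts 9 were higher and 0 lower. Of 23 bile acid genes 2 were higher and 1 lower, and of 17 cholesterol synthesis genes 3 were lower and 0 higher. Cyp7a1 was the furthest apart, with 11.22, 13.27 and 10.59 in the nitrite livers, 14.97, 17.08 and 15.80 in the fructose livers and 14.23, 14.77 and 13.92 in the water livers. Fructose livers lay above the water livers and nitrite livers below, and the nitrite minus fructose difference was −4.25 (SE 0.76, limma FDR = 0.584), while fructose minus water was 1.64 (FDR = 0.124). Idi1 and Msmo1 were lower again in the nitrite livers than in the fructose livers, with differences of −1.42 (SE 0.27, FDR = 0.607) and −1.23 (SE 0.36, FDR = 0.903). Abcg5, a subunit of the transporter that secretes sterols into bile, read 10.74, 13.09 and 11.87 in the nitrite livers, 9.20, 9.59 and 10.15 in the fructose livers and 11.16, 9.08 and 10.57 in the water livers. It did not overlap with fructose (difference 2.25, SE 0.54, FDR = 0.903) but did with water (1.63, SE 0.54, FDR = 0.0254, 0.0576 to 0.158 without nitrite array 2, nitrite array 3 or water array 2, and 0.212 against water array 3 alone). Abcg8, its partner on the other side of the promoter shown above and chosen for that after its values were seen, read 11.58, 12.69 and 12.08 in the nitrite livers, 10.45, 10.60 and 10.69 in the fructose livers and 10.70, 8.78 and 10.20 in the water livers (nitrite minus fructose 1.54, SE 0.40, FDR = 0.903; nitrite minus water 2.22, FDR = 0.000413). The other named differences were higher for Hsd17b6 (2.27, and 1.67 without nitrite array 2), Mfsd2a (2.17, and 2.85 without nitrite array 2 or 1.47 without nitrite array 3) and Lpin1 (1.73, and 1.14 without fructose array 2), and lower for Atp5md (−1.62), all log2, with FDRs of 0.643 to 0.903. Whether the fructose plus benzoate and fructose plus sorbate groups share these differences was not tested, so none is shown to be particular to nitrite. Over all 15 arrays the mean was 11.27 for Abcg5, 11.36 for Abcg8 and 13.28 for Hsd17b6, each above every fructose liver. For Lpin1 it was 12.00, within the range of the fructose livers. Gadd45g read 8.82, 10.29 and 7.06 in the nitrite livers and 7.01, 6.72 and 6.29 in the fructose livers, where 1 array lay under its negative control median. Vmn1r210 lay under the negative controls on all arrays of both groups, so no difference is given.

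**Figure D5:**
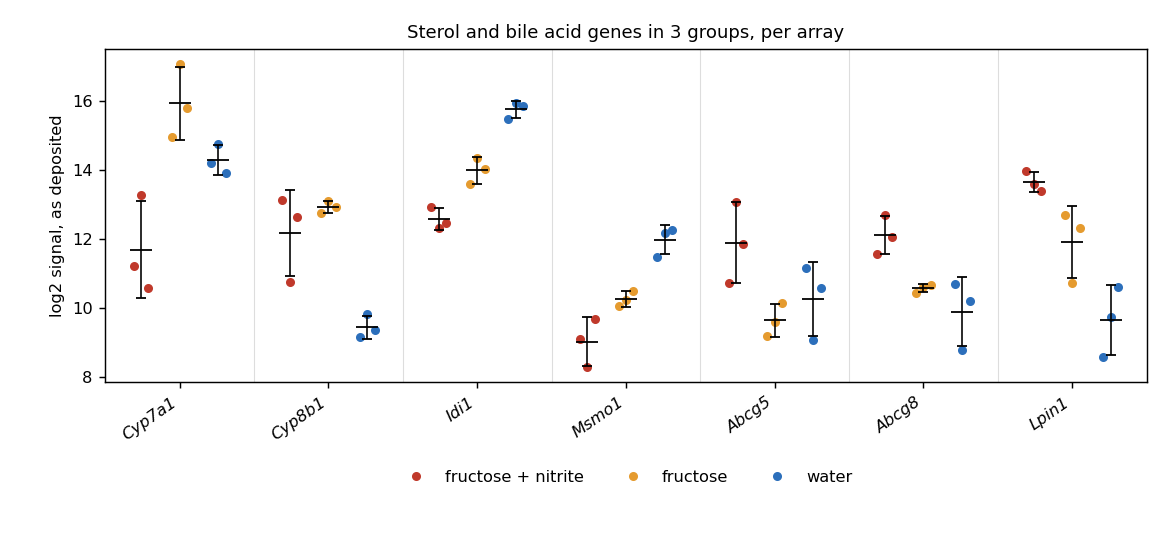
Log2 signal of 7 genes, which are sterol and bile acid genes and Lpin1 of triglyceride synthesis, with 1 point per array. Fructose plus nitrite is in red, fructose in orange and water in blue from left to right, with mean and SD (n = 3 each). Cyp7a1 is at 10.59 to 13.27 in the nitrite livers, 14.97 to 17.08 in the fructose livers and 13.92 to 14.77 in the water livers.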

How the data were processed

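The authors deposited 1 log2 signal for each probe set and array. The methods name SST-RMA, run in the Transcriptome Analysis Console, as the step that corrected background, normalized between arrays and summarised probes. The submitters' processing notes list RMA and Affymetrix Expression Console 1.4 beside that software. SST-RMA rescales signals before the averaging, so fold changes are on that rescaled range. Scanner files, scan dates and the sex of each mouse were not used here.

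Nothing was renormalized before the tests, which ran in R 4.3.3. Of 28846 entries, 6640 controls were left out, and 19572 of the 22206 probe sets tested carry 1 gene symbol. limma 3.58.1 was fitted to all 15 arrays with 1 mean per group and tested on simulated data. P-values were adjusted over all tested probe sets (Benjamini-Hochberg). Of several probe sets of a gene, the one with the highest mean stands for it. 55 genes had several, and for none were probe sets called in opposite directions. Precision is set by the number of arrays, which have no read depth. Same-numbered arrays of different groups are not the same animal.

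The members and the 40 gene lists were chosen with earlier results of these data known. Genes open to naming were the 10 largest rises and falls without overlap, up to 4 rises and 4 falls of each list, every member of the lipogenic, sugar, fatty acid oxidation, bile acid, nitric oxide and sex-linked lists, and the 5 largest rises and falls against fructose. The text describes a selection of these, made with their values known. Cell markers, Hmgcs1, Mgmt and Abcg8 were added after their values were seen, as was the rule for bounds against negative controls. The promoters came from RefSeq (GRCm38.p6), which held no entry in the table used for Cyp7a1, Scd1, Insr and others. The alternatives were quantile normalization, median centring, a filter at the 30th percentile of mean signal, only probe sets with 1 symbol, trended robust variances, array weights, a replicate block, the 6 arrays alone, covariates for the Y-linked mean and the hybridization controls, a gene span correction, and arrays left out.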

Additional observations from a re-analysis of the deposited data

Results flagged for a closer look

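Cyp7a1 stood on opposite sides of the water livers in the nitrite group and in the group given fructose alone. It was picked from all probe sets for this pattern, with an unadjusted limma p under 0.05 and a fold change over 2. The fructose plus benzoate and fructose plus sorbate groups, also without nitrite, had no part in that rule. Over all 15 arrays Cyp7a1 averaged 13.87, under the lowest water liver. Its log2 signal was 11.22, 13.27 and 10.59 in the nitrite livers and 14.97, 17.08 and 15.80 in the fructose livers, with 13.92 to 14.77 in the water livers that both are set against. Every nitrite liver lay below every water liver and every fructose liver above every water liver. The difference between nitrite and fructose was −4.25 (log2, SE 0.76, limma unadjusted p = 2.63e-05) and did not pass the adjustment over all probe sets (FDR = 0.584). Left out in turn, the arrays of the 2 groups gave differences between −5.04 and −3.69. With the replicate number as a block the difference did pass, as given at the end, although replicate numbers did not pair the arrays.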

How the results depend on the processing

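The 4966 probe sets altered against water numbered 4380 to 5097 under quantile normalization, median centring, trended robust variances, the filter at the 30th percentile, the restriction to probe sets with 1 symbol, array weights, a replicate block, the 6 arrays alone and the Y-linked covariate, and 4116 after the gene span correction, which was chosen after the data were seen. Median centring shifted the balance to 2895 higher and 1932 lower, against 2567 and 2399 as reported. Of the 110 named genes called, 104 to 110 kept their call under these alternatives.

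With the hybridization control mean as a covariate, 0 probe sets were altered (0 higher and 0 lower, 1849 at an unadjusted limma p under 0.05), none of the 110 genes passed, and 0 members were called, in the direction reported, in the lists of lipogenesis, fructose and glucose metabolism, fatty acid oxidation, bile acids (higher and lower), nitric oxide handling (higher and lower), acute phase proteins, cytokines, long transcripts, ribosomal proteins and respiratory chain. The sign turned for Cp (−0.10), Cyp2e1 (−0.18), Cyp4a10 (−0.32), Gch1 (0.40) and Itih4 (−0.036). The cause was not tested.

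Against water array 3 alone, 2803 probe sets were altered (1415 higher and 1388 lower), of which 2362 are among the 4966. Higher were 7 lipogenesis, 11 fatty acid oxidation and 3 nitric oxide genes, and 2 nitric oxide genes and 6 cytokines were lower. Left out in turn, single arrays gave 4553 (without water array 2) to 6328 (without water array 3), and 104 to 108 of the 110 genes kept their call.

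Replicate numbers did not pair the arrays: deviations of same-numbered nitrite and water arrays correlated at −0.068, −0.049 and −0.013. Those of same-numbered nitrite and fructose arrays correlated at 0.0032, −0.04 and 0.0379. With the replicate number as a block, 4980 probe sets were altered against water. Against fructose 1 was (Cyp7a1, FDR = 0.04), where all other alternatives gave 0. A correction for protein length was not run, since no lengths were used here. On all 6 arrays 5360 probe sets (24.1%) lay under the negative control median, where no level is read here.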
